A study of Mus musculus with 12 samples.

Results

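Interferon-stimulated genes are genes whose transcription rises when a cell receives an interferon signal. A list of 41 of them was followed here, array by array, in mouse lung with and without mechanical ventilation. A member was found by its gene symbol, and only probe sets that the platform's annotation gives that symbol alone were used. Of the 41 genes, 39 had such a probe set, out of 18193 genes measured in this way. Isg15 and Ifi44 had none. Where a gene had several probe sets, as 17 members did, the one with the highest mean signal stood for it. Of the 39, 35 passed a filter on low signal, set at a mean log2 signal of 3.056, and these were tested among 12309 genes. Oas3, Oasl1, Mx2 and Cxcl9 lay under the filter level, with mean log2 signals of 1.97, 1.93, 2.15 and 2.62.

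The samples were 12 lungs of male C57BL/6 mice aged 8 to 12 weeks, 1 array for each, in 4 groups of 3. Wild-type (WT) mice and nmMLCK-/- mice (here KO), which lack the long non-muscle isoform of the myosin light chain kinase encoded by Mylk, either breathed spontaneously (SB) or received ventilator-induced lung injury (VILI). VILI was 4 h of ventilation at 65 breaths per min with an end-expiratory pressure of 0 cm H2O. The samples' labels state a tidal volume of 40 ml/kg, whereas the text on the series states 30 ml/kg. The VILI animals are compared with animals that were not ventilated, so the tidal volume, the ventilator and the handling that goes with it cannot be told apart. The labels do not say how the KO allele was made. The values are log2 signals per probe set, normalized between arrays by the authors, and a difference of 1 is a 2-fold change. Signals of different probe sets are not on a common scale, so levels are compared only within a gene. With 3 arrays in each group their number limits the precision, and p-values measure the spread between these arrays.

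Type I and type III interferons act through receptors coupled to the kinases JAK1 and TYK2, which switch on transcription factors. A complex that holds STAT2 and IRF9 binds the interferon-stimulated response element (ISRE) in promoters, while interferon gamma acts largely through the gamma-activated site (GAS). The genes switched on encode sensors of viral RNA and DNA, proteins that block viral replication, the immunoproteasome and peptide transporter that feed MHC class I, and chemokines that draw T cells. In the lung these genes are best known from respiratory virus infection.

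The labelled tissue and target were checked first. All 11 lung marker genes passed the filter, and their summed log2 signal lay between 17.99 and 18.17 on the 12 arrays. The Mylk probe set in the fit averaged 12.93 in WT and 12.75 in KO, with a KO minus WT difference of -0.22 ± 0.08 (SE, n = 3 per group) under SB and -0.14 ± 0.08 under VILI, neither past the threshold. Its other two probe sets averaged 12.80 and 5.77 in WT and 12.38 and 4.92 in KO. The annotation does not say whether any of its 3 probe sets sees the long isoform alone, so this does not check the genotype labels. WT SB replicate 3 and KO SB replicate 2 stood apart from the other SB arrays. With each gene centred on its mean over all arrays, their median over 12 glucocorticoid target genes was -1.5 and -1.21, against -0.08 to 0.26 on the other SB arrays and 0.33 to 0.53 on the VILI arrays. The median of 8 neutrophil markers was 1.14 on WT SB replicate 3, within the 0.79 to 1.71 of the VILI arrays, and -1.99 to -1.21 on the other SB arrays. The members' results are therefore given with and without these arrays.

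The promoters of 6 members show the sequences through which the family is read, chosen because these genes include the largest fall, the only rise and a member that was not called. Each is the 250 bases before the start of a RefSeq transcript on build GRCm38.p6, printed 5′ to 3′ on the gene's own strand. Capitals mark each match of the ISRE core GAAANNGAA (on the other strand TTCNNTTTC) or of the GAS TTCNNNGAA, both strands searched. A match is a description of letters and not a measured binding site, and no match says only that these letters are not in this window.
Herc6, chr6:57580742-57580991, + strand: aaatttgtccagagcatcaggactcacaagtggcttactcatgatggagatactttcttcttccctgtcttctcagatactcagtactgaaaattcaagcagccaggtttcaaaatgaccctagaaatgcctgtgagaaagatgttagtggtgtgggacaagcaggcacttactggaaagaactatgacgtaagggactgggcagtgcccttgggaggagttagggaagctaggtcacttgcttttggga
Psmb8, chr17:34197945-34198194, + strand: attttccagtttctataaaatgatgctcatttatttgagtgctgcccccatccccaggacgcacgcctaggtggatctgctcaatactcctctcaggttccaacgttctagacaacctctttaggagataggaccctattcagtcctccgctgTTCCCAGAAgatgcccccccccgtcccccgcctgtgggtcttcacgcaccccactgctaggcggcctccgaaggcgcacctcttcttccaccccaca
Gbp2, chr3:142620413-142620662, + strand: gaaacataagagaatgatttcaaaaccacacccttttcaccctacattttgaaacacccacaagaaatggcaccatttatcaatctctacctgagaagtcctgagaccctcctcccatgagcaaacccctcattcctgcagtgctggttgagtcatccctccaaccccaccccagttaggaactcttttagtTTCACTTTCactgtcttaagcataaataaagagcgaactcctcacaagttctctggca
Ifit2, chr19:34550444-34550693, + strand: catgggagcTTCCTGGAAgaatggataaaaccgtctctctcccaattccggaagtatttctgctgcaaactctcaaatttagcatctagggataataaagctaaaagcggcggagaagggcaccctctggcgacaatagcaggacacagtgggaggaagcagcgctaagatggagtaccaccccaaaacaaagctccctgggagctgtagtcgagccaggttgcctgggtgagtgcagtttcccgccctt
Ifit1, chr19:34640639-34640888, + strand: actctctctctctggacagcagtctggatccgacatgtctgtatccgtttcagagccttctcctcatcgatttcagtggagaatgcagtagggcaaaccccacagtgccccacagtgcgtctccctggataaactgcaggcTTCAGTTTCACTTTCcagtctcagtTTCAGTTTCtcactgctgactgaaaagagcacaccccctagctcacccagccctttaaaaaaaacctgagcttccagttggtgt
Cxcl10, chr5:92348890-92349139, - strand: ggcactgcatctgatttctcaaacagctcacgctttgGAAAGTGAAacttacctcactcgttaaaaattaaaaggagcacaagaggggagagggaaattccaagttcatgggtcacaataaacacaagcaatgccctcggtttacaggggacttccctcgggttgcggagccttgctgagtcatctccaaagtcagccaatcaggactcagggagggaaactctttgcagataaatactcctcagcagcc

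Ifit1 held 3 ISRE cores, the first 2 of them overlapping, and Cxcl10 and Gbp2 held 1 each. Ifit2 and Psmb8 held a GAS match and no ISRE core, and Herc6 held neither. RefSeq's promoter table, which runs from 250 bases before to 50 bases after each start, held 32 of the 41 members. Of these, 18 (56.25%) held an ISRE core in at least 1 promoter, against 9.76% of all 27025 genes in the table. A GAS match was found in 8 members (25.0%), against 9.55% of all genes.

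After ventilation, most interferon-stimulated genes stood below their level under spontaneous breathing, by a small amount, and Cxcl10 stood above it. Averaged over both genotypes, 27 of the 35 tested members were lower and 8 were higher after VILI, and 14 had an adjusted p under 0.05 (limma, Benjamini-Hochberg over 12309 genes), which is what a call means here. Of these, 13 fell, which is 37.1% of the members against 22.6% of all genes, and 1 rose, which is 2.86% against 14.1%. In either direction 40.0% of the members and 36.7% of all genes passed, so the share called was near the background and the split between falls and rises was not. The median difference of the members was -0.24, and that of all genes tested was -0.05. Without the 2 SB arrays that stood apart, the members' median was -0.08 and that of all genes -0.03, with 20 members lower and 15 higher. In that fit 25.7% of the members fell against 20.3% of all genes, and 28.6% against 34.8% were called in either direction. Only Herc6 changed by 2-fold or more, and 25 of the 35 differences were under 0.5 in size.

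Within a genotype, 3 arrays against 3, fewer members passed. In WT, 30 of 35 members were lower after VILI and 5 were higher, with a median of -0.23. Herc6 alone passed, against 15.4% of all genes (6.34% higher and 9.03% lower). In 9 members every VILI array lay below every SB array, and in 1 every VILI array lay above, while 20.5% and 15.5% of all genes had such groups. In KO, 25 members were lower and 10 were higher, with a median of -0.24. There 5 members fell (Bst2, Herc6, Ifi35, Ifit2 and Psmb8) and Cxcl10 rose, in all 17.1% of the members against 20.7% of all genes (8.12% higher and 12.6% lower). Groups that did not overlap were found for 12 members on the lower side and 4 on the higher side, and for 25.8% and 17.9% of all genes. The WT and KO differences had the same sign in 28 of 35 members. Over all 12 arrays, the 6 VILI arrays lay below the 6 SB arrays for Herc6, Psmb9 and Ifit2, and above them for Cxcl10, while 10.4% and 7.45% of all genes showed this. In whole lung, fewer cells of a type and less RNA per cell cannot be told apart in any of these values.

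**Figure D1:**
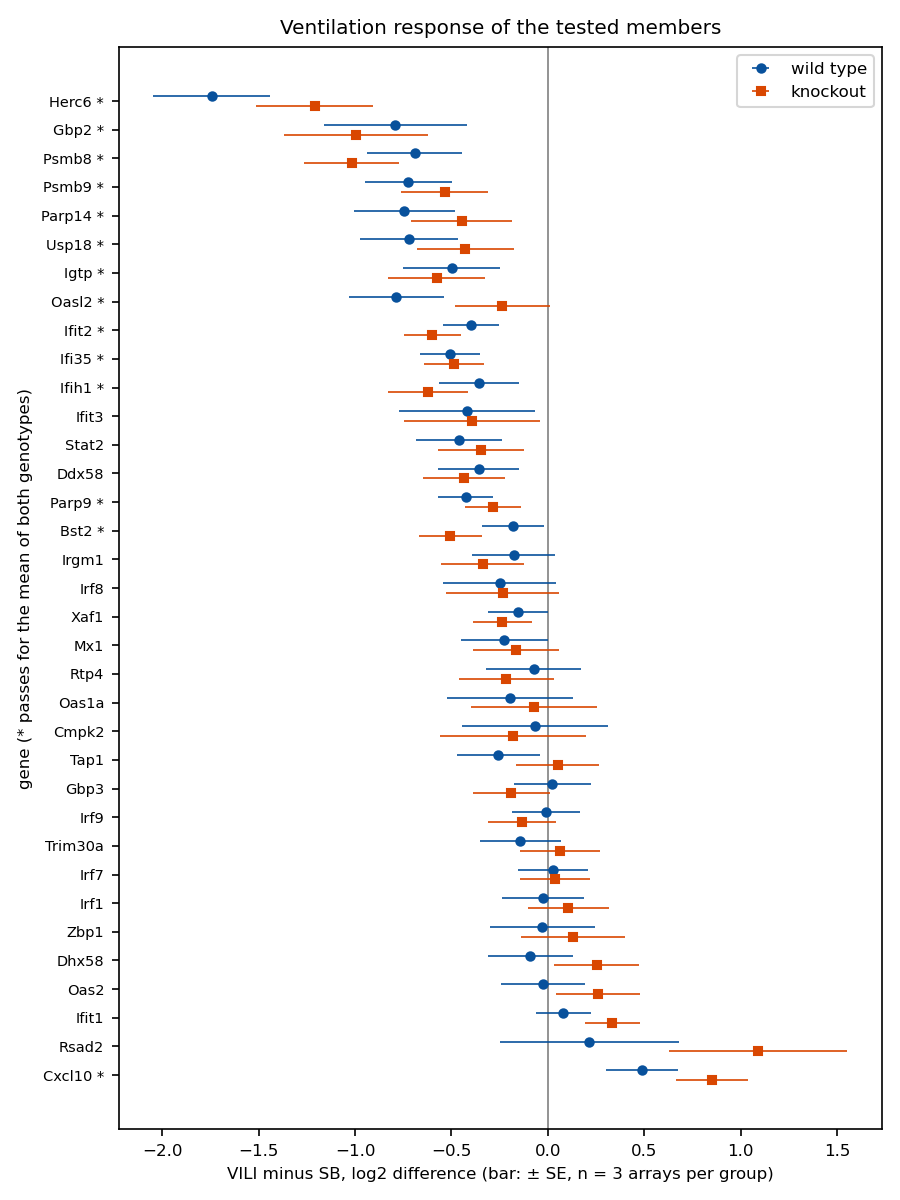
Difference between VILI and SB arrays in log2 signal (horizontal axis) for each of the 35 tested members (vertical axis), in wild type (circles) and knockout (squares), with bars of 1 SE and n = 3 arrays per group. Stars mark the 14 members that pass for the mean of both genotypes; most points lie left of 0, with Herc6 farthest left and Cxcl10 and Rsad2 farthest right.

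The ISG15 system attaches the small ubiquitin-like protein ISG15 to other proteins and takes it off again. Its ligase in the mouse is Herc6, and its protease is Usp18, which also restrains the type I interferon receptor. Both measured genes of this system fell. For this role and each role below, the background over both genotypes is that 22.6% of all genes fell and 14.1% rose. Herc6 had log2 signals of 7.75, 7.37 and 8.46 on WT SB arrays 1 to 3 and of 6.34, 5.69 and 6.33 on the WT VILI arrays. The KO values were 7.65, 8.17 and 8.15 under SB and 7.13, 6.84 and 6.37 after VILI. The 6 VILI values all lay below the 6 SB values. The fall was 1.74 ± 0.30 on the log2 scale in WT (SE, n = 3 per group, adjusted p = 0.00537) and the difference was -1.21 ± 0.30 in KO (adjusted p = 0.0207). Averaged over genotypes, Herc6 fell to 0.359 times its SB level (adjusted p = 0.000722). It has 3 probe sets past the filter, which agree in direction but not in size. Tested one by one over all probe sets past the filter, they differed between VILI and SB by -1.48, -1.25 and -0.57 (adjusted p = 0.00104, 0.033 and 0.0334), while in WT the other two stood at -1.05 and -0.29 and did not pass. With the mean of its probe sets in place of the brightest, Herc6 did not pass in WT.

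Usp18 had signals of 8.94, 8.40 and 9.49 on WT SB arrays and 8.24, 8.29 and 8.14 after VILI. In KO it had 8.35, 9.05 and 8.65 under SB and 8.44, 8.02 and 8.31 after VILI. The groups did not overlap in WT and did in KO. Usp18 fell by 0.57 ± 0.18 over both genotypes (adjusted p = 0.0298), and this call was lost in 6 of the 12 fits that leave out 1 array each, with adjusted p up to 0.0714.

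The antigen-processing members lie next to each other on chromosome 17 in the order Psmb9, Tap1, Psmb8. Psmb8 and Psmb9 encode catalytic subunits of the immunoproteasome, which cuts peptides for MHC class I, and Tap1 encodes part of the transporter that carries them into the endoplasmic reticulum. Both proteasome subunits fell, and Tap1 was not called. Psmb8 had signals of 10.43, 9.99 and 10.73 on WT SB arrays and 10.03, 9.64 and 9.40 on WT VILI arrays, which overlap. The KO arrays read 10.27, 10.80 and 10.29 under SB and 9.78, 9.13 and 9.41 after VILI, which do not. The difference was -0.69 ± 0.25 in WT (adjusted p = 0.0859) and -1.02 ± 0.25 in KO (adjusted p = 0.0185), and over both genotypes Psmb8 fell by 0.85 ± 0.17 (adjusted p = 0.00433). A second Psmb8 probe set showed 0.08 over both genotypes (adjusted p = 0.325).

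Psmb9 had signals of 9.49, 9.31 and 9.68 under SB and 9.21, 8.87 and 8.23 after VILI in WT. KO arrays had 9.43, 9.75 and 9.38 under SB and 9.14, 8.73 and 9.09 after VILI. No VILI array reached the lowest SB array. Psmb9 fell by 0.63 ± 0.16 over both genotypes (adjusted p = 0.0119). Tap1, between them on the chromosome, had 8.77, 8.60 and 8.60 against 8.75, 8.51 and 7.94 in WT and 8.69, 8.69 and 8.90 against 8.85, 8.43 and 9.15 in KO. Its groups overlapped in both genotypes, and the difference was -0.10 ± 0.15 (adjusted p = 0.617).

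Guanylate-binding proteins and immunity-related GTPases are interferon-induced proteins that attack the vacuoles of intracellular microbes. Of 4 members, Gbp2 and Igtp fell over both genotypes, and Gbp3 and Irgm1 stood at -0.08 and -0.26 and were not called. Gbp2 had signals of 10.55, 10.18 and 11.65 under SB and 10.28, 9.86 and 9.87 after VILI in WT. In KO it had 10.63, 11.75 and 10.92 under SB and 10.37, 9.86 and 10.08 after VILI. The highest SB value in each genotype, 11.65 and 11.75, came from the array that stood apart. Gbp2 fell by 0.89 ± 0.26 (adjusted p = 0.0233), and by 0.52 without those 2 arrays (adjusted p = 0.0207). Its second probe set differed by -0.80 (adjusted p = 0.023).

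Igtp had signals of 10.43, 9.74 and 10.04 under SB and 9.96, 9.28 and 9.46 after VILI in WT, and 10.49, 10.36 and 10.21 against 10.12, 9.27 and 9.94 in KO. The WT groups overlapped and the KO groups did not. The fall of 0.54 ± 0.18 (adjusted p = 0.0381) was no longer called in 7 of the 12 fits that leave out 1 array, with adjusted p up to 0.0868.

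Antiviral effectors are the largest role in the list, with 20 members, 19 with a probe set and 16 tested. Averaged over genotypes, 6 of the 16 fell (Ifit2, Ifi35, Parp14, Oasl2, Parp9 and Bst2) and none rose, while 22.6% of all genes fell and 14.1% rose. The median was -0.20, and that of all genes was -0.05. Ifit2, which binds viral RNA and blocks its translation, had signals of 9.84, 9.88 and 10.11 under SB and 9.61, 9.71 and 9.31 after VILI in WT. In KO it had 10.16, 10.48 and 10.08 under SB and 9.67, 9.80 and 9.45 after VILI. All VILI values lay below all SB values. Ifit2 fell by 0.50 ± 0.10 over both genotypes (adjusted p = 0.0048), with -0.40 in WT (adjusted p = 0.0942) and -0.60 in KO (adjusted p = 0.0195). Its relatives nearby on chromosome 19 were not called. Ifit3 stood at -0.41 ± 0.25 (adjusted p = 0.224), and Ifit1 stood at 0.21 ± 0.10 (adjusted p = 0.13). Ifit1, whose promoter holds 3 ISRE cores, had 8.36, 8.03 and 8.44 against 8.20, 8.53 and 8.34 in WT and 8.34, 8.12 and 8.24 against 8.76, 8.36 and 8.59 in KO, so that in KO its VILI arrays lay above its SB arrays.

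Ifi35, a leucine zipper protein induced by interferon, had signals of 12.62, 12.35 and 13.01 under SB and 12.12, 12.17 and 12.17 after VILI in WT, and 12.68, 12.88 and 12.71 against 12.16, 12.17 and 12.48 in KO. The groups did not overlap within a genotype. It fell by 0.50 ± 0.11 over both (adjusted p = 0.00609), and its 3 probe sets differed by -0.65, -0.50 and -0.50 (adjusted p = 0.000448, 0.00802 and 0.0259). Within KO the adjusted p was 0.0479, and 9 of 12 fits without 1 array lost that call.

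Parp9 and Parp14 encode proteins of the ADP-ribosyltransferase family, and both lie on chromosome 16 with Mylk, with 22 and 18 annotated genes between. Rtp4, Mx1 and Mx2 lie on that chromosome too, farther from Mylk, with 178, 823 and 826 genes between. Parp14 had signals of 9.66, 9.18 and 10.45 under SB and 8.89, 9.07 and 9.09 after VILI in WT, and 9.78, 10.11 and 9.71 against 9.53, 9.21 and 9.53 in KO. Parp9 had 9.55, 9.33 and 9.78 against 9.08, 9.21 and 9.09 in WT and 9.65, 9.65 and 9.53 against 9.59, 9.05 and 9.33 in KO. Groups did not overlap except for Parp9 in KO. The falls over both genotypes were 0.60 ± 0.19 for Parp14 (adjusted p = 0.0297) and 0.36 ± 0.10 for Parp9 (adjusted p = 0.0209). A second Parp14 probe set differed by -0.01 (adjusted p = 0.932).

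Oasl2, a protein of the oligoadenylate synthetase family, had signals of 9.64, 9.33 and 10.52 under SB and 9.06, 8.91 and 9.18 after VILI in WT, and 9.38, 9.62 and 9.47 against 9.34, 9.05 and 9.37 in KO. The groups did not overlap in either genotype. The fall of 0.51 ± 0.17 (adjusted p = 0.0416) lost its call in 9 of 12 fits without 1 array. Bst2, or tetherin, which holds budding viruses at the cell surface, had 10.05, 10.12 and 10.53 against 10.26, 9.96 and 9.94 in WT and 9.97, 10.33 and 9.97 against 9.77, 9.42 and 9.57 in KO. The WT groups overlapped and the KO groups did not. Bst2 fell by 0.34 ± 0.11 over both genotypes (adjusted p = 0.0387) and by 0.51 ± 0.16 in KO (adjusted p = 0.04999), and 6 and 11 of the 12 fits without 1 array lost these calls.

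Rsad2, or viperin, which makes an antiviral nucleotide, had the largest positive difference in KO and was not called by its brightest probe set. Its signals were 8.99, 6.97 and 8.21 under SB and 8.27, 8.35 and 8.19 after VILI in WT, and 8.08, 8.10 and 7.12 against 8.46, 8.67 and 9.45 in KO. In KO every VILI array lay above every SB array, and in WT the groups overlapped. The difference was 0.22 ± 0.46 in WT (adjusted p = 0.785) and 1.09 ± 0.46 in KO (adjusted p = 0.115), and over both genotypes it was 0.65 ± 0.33 (adjusted p = 0.141). Rsad2 was called over both genotypes without WT SB replicate 1, and in KO without WT SB replicate 2 or with array weights. Tested one by one, 1 of its other two probe sets rose by 1.29 over both genotypes (adjusted p = 0.0444) and by 2.04 in KO (adjusted p = 0.0464). The other differed by 0.15 over both genotypes and by 0.14 in KO (adjusted p = 0.729). Cmpk2, its direct neighbour on chromosome 12, stood at -0.12 over both genotypes. The 6 effectors left (Oas1a, Oas2, Mx1, Rtp4, Xaf1 and Trim30a) differed by -0.20 to 0.12 over both genotypes, and none was called. Of these, Mx1 lay near the filter level, with a mean of 3.18 and 10 of 12 arrays over it. RefSeq lists Mx1 and Mx2 as transcribed pseudogenes.

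Of the 4 sensors, Ifih1 (MDA5, a sensor of long viral double-stranded RNA) fell. It had signals of 9.87, 9.59 and 10.53 under SB and 9.59, 9.77 and 9.56 after VILI in WT, which overlap, and 10.17, 10.37 and 9.97 against 9.63, 9.43 and 9.58 in KO, which do not. The fall was 0.49 ± 0.15 over both genotypes (adjusted p = 0.0247). Ddx58 (RIG-I, a sensor of viral RNA ends) stood at -0.40 ± 0.15 (adjusted p = 0.0593), and its second probe set past the filter at -0.70. Ddx58 was called with the filter at the 60th percentile, the mean of its probe sets or array weights. It was also called without WT SB replicate 2 or KO SB replicate 3, and in no other setting. Dhx58, a helicase that modulates these sensors, and the nucleic acid sensor Zbp1 stood at 0.08 and 0.05.

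The 5 transcription factors were not called. Stat2 stood at -0.40 ± 0.16 (adjusted p = 0.0673) and Irf8 at -0.24 (adjusted p = 0.38), while a second Irf8 probe set, tested by itself, stood at 0.21 (adjusted p = 0.417), and Irf1, Irf7 and Irf9 lay between -0.07 and 0.04. Irf7, the factor that amplifies type I interferon production and is itself strongly interferon-induced, differed by 0.03 ± 0.13 (adjusted p = 0.856).

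Cxcl10, a chemokine for CXCR3-bearing T cells, was the only member that rose by its brightest probe set. It had signals of 5.95, 5.54 and 5.86 under SB and 6.70, 6.02 and 6.09 after VILI in WT. In KO it had 5.98, 5.55 and 5.76 under SB and 6.52, 6.58 and 6.73 after VILI. Every VILI array lay above every SB array. The difference was 0.49 ± 0.19 in WT (adjusted p = 0.106) and 0.85 ± 0.19 in KO (adjusted p = 0.0126), and Cxcl10 rose 1.59-fold over both genotypes (adjusted p = 0.00373). None of the 12 fits without 1 array lost this call. Cxcl9, which shares the receptor, was under the filter level by the mean of both its probe sets and was not tested. The brighter of these lay at 2.56 to 2.70, and the other at 2.39 to 2.68 on 11 arrays and at 3.71, over the filter level, on KO SB replicate 1.

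**Figure D2:**
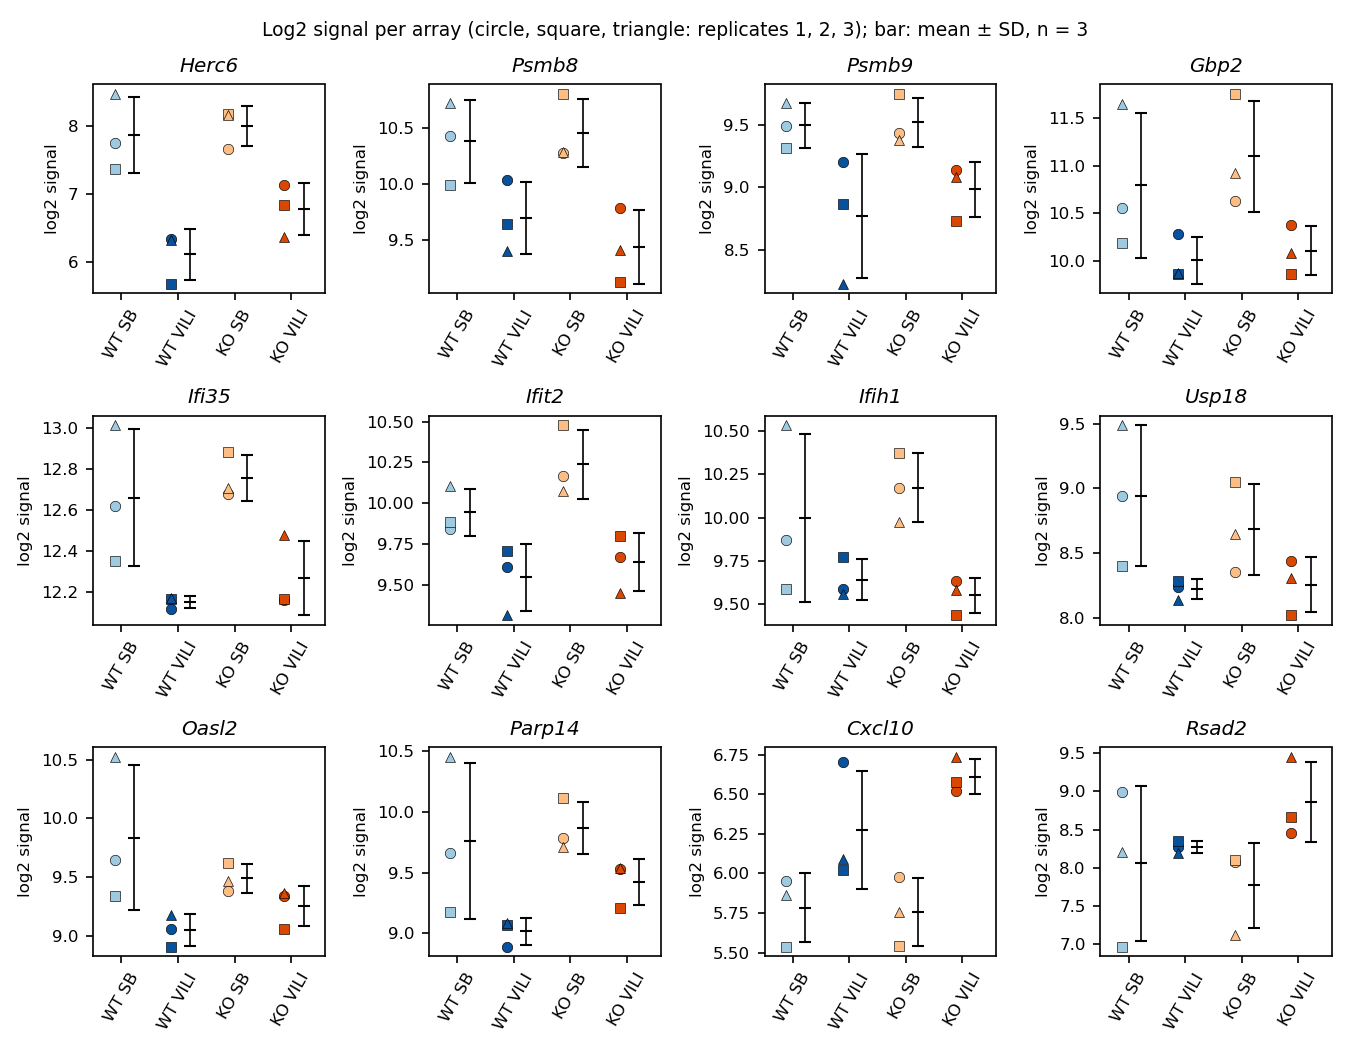
Log2 signal (vertical axis) on each array for 12 members, by group (horizontal axis), with circle, square and triangle for replicates 1 to 3 and a bar for the mean and SD of 3 arrays. Herc6, Psmb9 and Ifit2 have all VILI arrays below all SB arrays, Cxcl10 has them above, and the triangle of WT SB is the highest of 12 in several panels.

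The response to ventilation did not differ detectably between the genotypes for any member. No member passed for the KO response minus the WT response, where 0% of all genes passed (0% higher and 0% lower), and none had an unadjusted p under 0.05. The median difference of responses was 0.06 over the members and -0.01 over all genes. The 95% intervals all held 0. For 23 of 35 members the interval stayed within 1 on the log2 scale on both sides, and for 12 it reached past that size, so that a 2-fold difference of response is inside the interval. These 12 include Rsad2 (0.87, from -0.58 to 2.33), Oasl2 (0.55, from -0.22 to 1.32) and Herc6 (0.53, from -0.41 to 1.48). The direction for Herc6 turned to -0.13 with the mean of its probe sets. The next largest differences of response were 0.36 ± 0.27 for Cxcl10 and 0.35 ± 0.31 for Dhx58. Without WT SB replicate 3, the difference of responses was 0.21 for Oasl2 and 0.23 for Herc6, and it was 0.41 for Rsad2 without WT SB replicate 1. Without both SB arrays that stood apart it was 0.27 for Oasl2, 0.32 for Herc6, 0.22 for Cxcl10 and 0.0058 for Dhx58.

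Between genotypes under SB, no member passed, and 0.0487% of all genes did (0.0162% higher and 0.0325% lower in KO). The members' median was -0.01 and that of all genes 0.02. The largest differences were 0.46 ± 0.20 for Gbp3 (unadjusted p = 0.0445, limma), -0.37 ± 0.22 for Dhx58, -0.35 ± 0.25 for Oasl2, -0.33 ± 0.22 for Stat2 and 0.31 ± 0.37 for Gbp2. Without WT SB replicate 3, Oasl2 stood at -0.00067 and Dhx58 at -0.19, and without both SB arrays that stood apart at -0.07 and -0.03. Gbp3 stood at 0.71 without WT SB replicate 3 and at 0.24 without WT SB replicate 2, and Gbp2 ran from -0.02 without KO SB replicate 2 to 0.73 without WT SB replicate 3. Gbp3 had 9.45, 9.07 and 10.02 under SB in WT and 9.88, 10.11 and 9.92 in KO, which overlap. Stat2, a transcription factor of the type I signal, had 8.16, 7.89 and 8.18 in WT and 7.54, 7.88 and 7.83 in KO. It was the only member whose SB groups did not overlap, with KO lower, against 2.31% of all genes lower and 4.3% higher. Its lowest WT value, 7.89, and its highest KO value, 7.88, nearly met. A second Stat2 probe set past the filter had 6.25, 5.69 and 6.18 in WT and 5.94, 5.42 and 5.65 in KO, which overlap.

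After VILI, again no member passed between the genotypes, and 0.106% of all genes did (0.0487% higher and 0.0569% lower in KO). The largest differences were 0.66 ± 0.30 for Herc6, which turned to -0.21 with the mean of its probe sets, 0.59 ± 0.46 for Rsad2, -0.47 ± 0.16 for Bst2 (unadjusted p = 0.0154, limma), 0.41 ± 0.21 for Tap1 and 0.40 ± 0.26 for Parp14. Groups did not overlap for 4 members higher in KO (Herc6, Rsad2, Parp14 and Gbp3) and 2 lower (Bst2 and Irf7), while 11.1% and 9.33% of all genes showed this. The comparisons within and between genotypes share arrays, so their values are not independent of each other.

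Many members peaked on 1 of the 2 SB arrays that stood apart. WT SB replicate 3 had the highest signal of all 12 arrays for 22 of the 35 members, while 16.2% of all genes were highest there. KO SB replicate 2 was highest for 8 of the 35 members, nearer to its share of all genes, 17.2%. With each gene centred on its mean, the members' median was 0.55 and 0.26 on these arrays, -0.19 to 0.06 on the other SB arrays, and -0.29 to 0.01 on the VILI arrays. The ranges of the other 4 SB arrays and of the VILI arrays overlap. At the low end, KO VILI replicate 2 had the lowest signal for 10 members and 5.12% of all genes, and WT SB replicate 2 for 8 members and 11.4% of all genes.

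**Figure D3:**
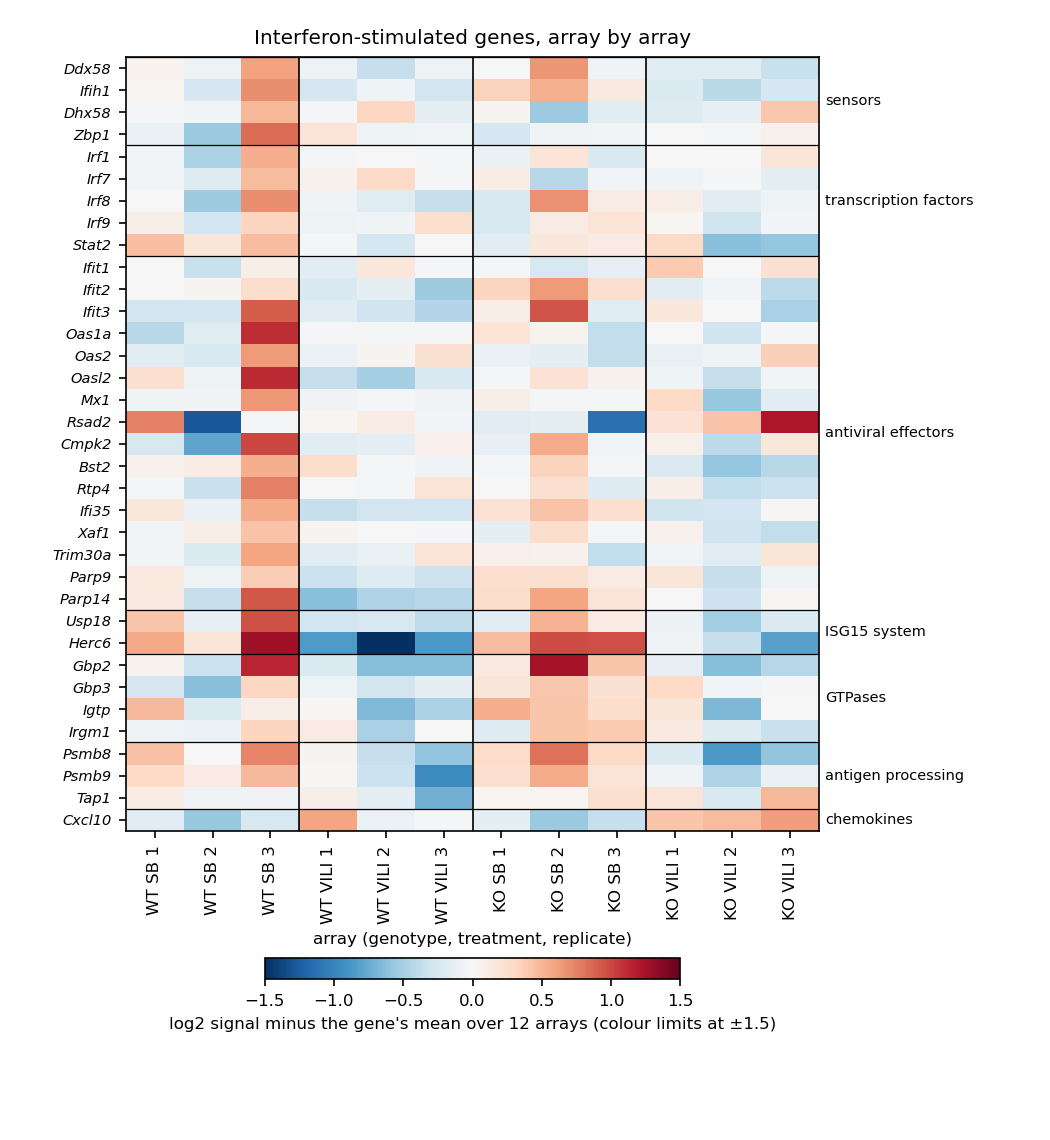
Log2 signal of the 35 tested members (vertical axis, by role) on each of the 12 arrays (horizontal axis), as the difference from the gene's mean over all arrays; red is higher and blue is lower, with colours ending at 1.5 on either side. WT SB replicate 3 is red in most members, and Herc6 and Cxcl10 separate the SB from the VILI arrays.

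Without both of these arrays, with 2 SB arrays left per genotype, most single calls were kept while the members' median moved toward 0. Over both genotypes 10 members were called and all of them had been called with 12 arrays: 9 fell (Gbp2, Herc6, Ifi35, Ifih1, Ifit2, Oasl2, Parp14, Psmb8 and Psmb9), or 25.7% of the members against 20.3% of all genes in that fit, and Cxcl10 rose (2.86% against 14.5%). In either direction 28.6% of the members and 34.8% of all genes passed. Herc6 then fell by 1.28 (adjusted p = 0.00168), Psmb8 by 0.68 (adjusted p = 0.0133), Psmb9 by 0.53 (adjusted p = 0.0458) and Ifit2 by 0.40 (adjusted p = 0.0141). Ifi35, Parp14, Oasl2 and Ifih1 fell by 0.38, 0.36, 0.31 and 0.30, and Cxcl10 rose by 0.64 (adjusted p = 0.0112). Bst2, Igtp, Parp9 and Usp18 lost their calls, with adjusted p of 0.113, 0.0819, 0.0625 and 0.0645. The members' median moved from -0.24 to -0.08 over both genotypes, from -0.23 to -0.02 in WT and from -0.24 to -0.12 in KO. In that fit the medians of all genes were -0.03, -0.02 and -0.04, so in WT the members' median was that of all genes. Leaving out WT SB replicate 3 alone also gave WT medians of -0.02 over the members and -0.02 over all genes. Over both genotypes 20 members were then lower and 15 were higher. In WT Herc6 was still the only call (2.86% of the members against 17.9% of all genes), and in KO 7 members were called (20.0% against 19.5%), Bst2 being lost and Gbp2 and Ifih1 added. No member was called between genotypes or for the difference of responses without these arrays, and the medians there were 0.11 under SB, 0.03 after VILI and -0.06 for the difference of responses.

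**Figure D4:**
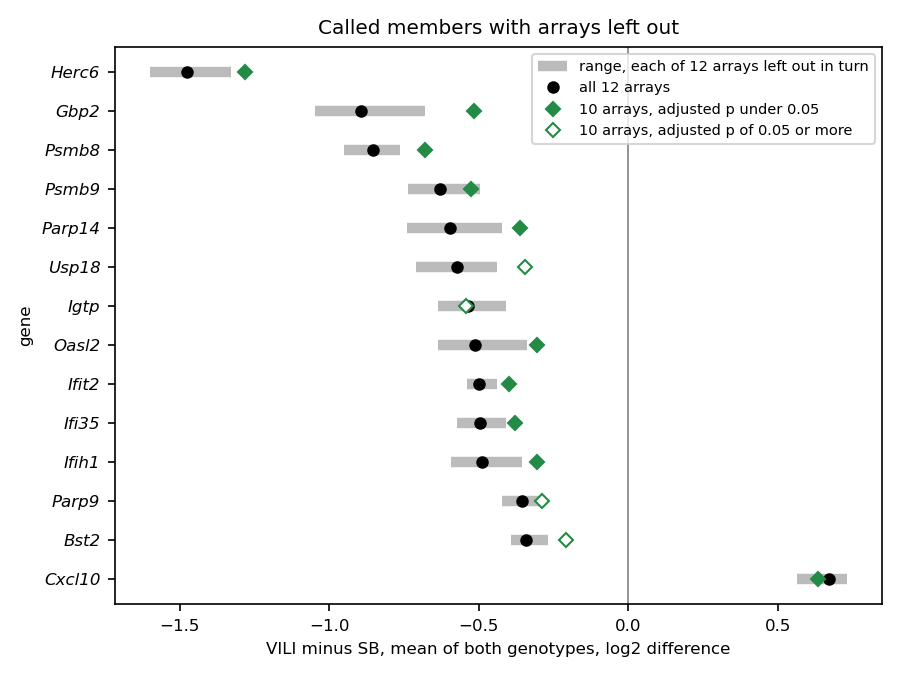
Difference between VILI and SB averaged over genotypes, in log2 signal (horizontal axis), for the 14 called members (vertical axis), with all 12 arrays (black points), as the range when each array is left out (grey bars), and without both SB arrays that stood apart (diamonds, filled where adjusted p is under 0.05). Herc6 stays lowest and Cxcl10 stays the only positive value, and 4 diamonds are open.

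Among fits that leave out 1 array, 7 of the 14 calls over both genotypes were kept in all 12 fits (Herc6, Cxcl10, Ifi35, Ifit2, Parp9, Psmb8 and Psmb9). The number of members called ran from 7, without WT VILI replicate 3 or KO VILI replicate 2, to 15, without WT SB replicate 2. In KO it ran from 1, without KO SB replicate 2, to 8, without WT SB replicate 3, and it was 3 without KO SB replicate 3 and 2 without KO VILI replicate 2 or 3. The KO call of Cxcl10 was kept in every one of these fits. In WT it ran from 1 to 7, the latter without WT SB replicate 2, and it was 2 without WT VILI replicate 1 or KO VILI replicate 1 or 3. Herc6 was called in WT in all 12. Its KO call was lost without KO SB replicate 2 or 3 and without KO VILI replicate 2 or 3. Psmb8 lost its KO call without KO SB replicate 2 and without KO VILI replicate 2 or 3. Ifit2 lost its KO call without KO SB replicate 2 and without KO VILI replicate 3.

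Marker genes of cell types and of glucocorticoid action also differed between the arrays. Of 8 tested neutrophil markers, 7 rose over both genotypes, while 14.1% of all genes rose, and their median was 2.46. Their summed log2 signal was 12.61 to 15.37 on WT SB arrays and 14.89 to 15.62 on WT VILI arrays, and 12.01 to 12.39 and 15.09 to 15.82 in KO. The 15.37 came from WT SB replicate 3, the array where 22 members peaked, which also held the highest summed B cell signal, 11.59, against 9.35 to 10.58 elsewhere, and the highest summed monocyte signal, 13.29, against 12.06 to 12.81. KO SB replicate 2, the other array that stood apart, had the lowest summed neutrophil signal of all, 12.01. Of 12 glucocorticoid targets, 4 rose after VILI and 0 fell, while 14.1% of all genes rose and 22.6% fell. Their summed signal was 16.33 and 16.17 on the 2 SB arrays that stood apart and 17.32 to 17.47 on the VILI arrays. Of the other tested cell markers, 2 of 10 for T and NK cells and 1 of 6 for monocytes rose, and 0 fell. For alveolar macrophages 2 of 8 rose and 1 fell, for classical dendritic cells 2 of 5 fell and 0 rose, and for B cells 0 of 5 were called. Of 8 listed markers of plasmacytoid dendritic cells, which are strong producers of type I interferon, 7 had a probe set and 4 passed the filter. Over both genotypes only Tcf4, which other cells also express, was called, and it rose by 0.30. Of the 4, 2 were higher and 2 were lower, with a median of -0.07 and the lowest at -0.74. A summed signal gives most weight to the brightest genes. The list's summed log2 signal was 12.96 to 13.31 on WT SB and 13.25 to 13.56 on WT VILI arrays, and 13.04 to 13.15 and 13.29 to 13.35 in KO. Its defining marker Siglech lay under the filter level on every array, at 1.84 to 1.89. The part of neutrophils, plasmacytoid dendritic cells, other blood cells and glucocorticoid action in the members' values was not tested.

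**Figure D5:**
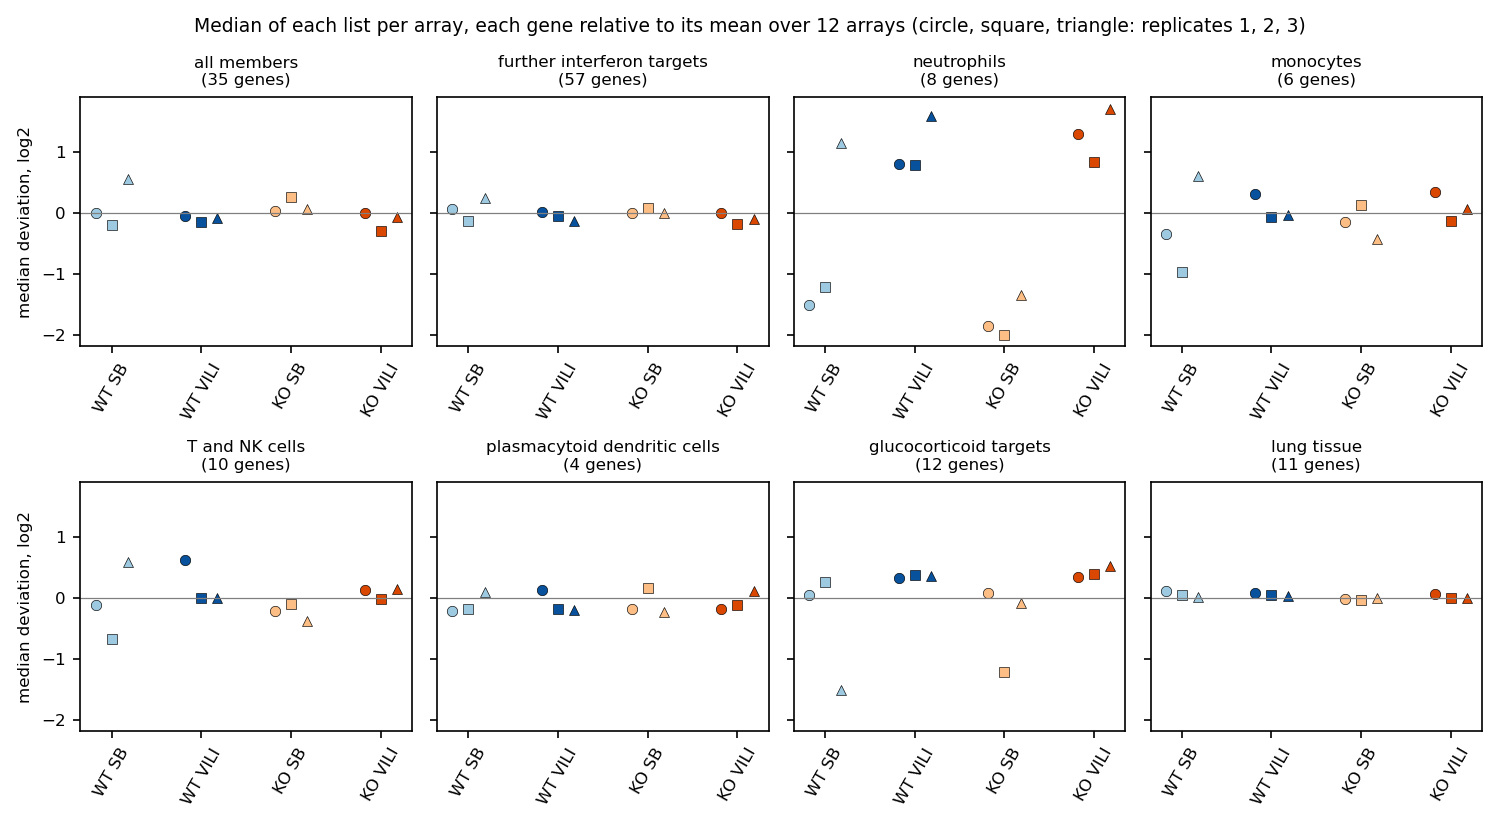
Median over each gene list of the log2 signal relative to each gene's mean over 12 arrays (vertical axis), on every array, by group (horizontal axis), with circle, square and triangle for replicates 1 to 3. The members and the further interferon targets spread less than the neutrophil markers and are highest on WT SB replicate 3, the members at 0.55. The neutrophil markers separate SB from VILI except on WT SB replicate 3, and the glucocorticoid targets are low on WT SB replicate 3 and KO SB replicate 2.

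The genes around the members were read from lists of the interferon pathway. Interferons themselves were hardly measured: of 9 ligand genes with a probe set, 8 lay under the filter level. Ifnb1, the first type I interferon made after sensing, stood at 2.06 to 2.13 on the 12 arrays, and Ifng at 2.30 to 2.37. Ifna2 passed the filter and was not called (-0.05 over both genotypes). Of 9 receptor and kinase genes, 2 fell over both genotypes (22.2%, against 22.6% of all genes) and none rose (against 14.1%). Tyk2, the kinase bound to the type I receptor, fell by 0.59 ± 0.12 (adjusted p = 0.00397), and Il10rb, a receptor chain of type III interferons shared with interleukin 10, fell by 0.45 ± 0.13 (adjusted p = 0.0224).

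Of 12 tested signalling genes and inhibitors of the pathway, 3 rose (25%, against 14.1% of all genes) and 1 fell (8.33%, against 22.6%). Socs3, a feedback inhibitor of cytokine receptors best known for interleukin 6 signals, had signals of 10.88 to 11.55 on the 6 SB arrays and 12.65 to 13.32 on the 6 VILI arrays and rose by 1.89 ± 0.13 (adjusted p = 1.5e-05). Ptpn2, a phosphatase of JAK kinases, rose by 0.83 ± 0.07 (adjusted p = 5.07e-05), and the phosphatase Ptpn11 by 0.22 ± 0.05 (adjusted p = 0.00998). Irf2, a repressor of some interferon targets, fell by 0.41 ± 0.09 (adjusted p = 0.00687).

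Of 11 tested genes of nucleic acid sensing upstream of interferon, 4 rose (36.4%, against 14.1% of all genes) and 3 fell (27.3%, against 22.6%). The adaptors Myd88 and Ticam1 rose by 0.66 ± 0.08 and 0.61 ± 0.12, the endosomal RNA sensor Tlr7 by 1.04 ± 0.26 and the kinase Tbk1 by 0.21 ± 0.07. Mavs, the adaptor that RIG-I and MDA5 signal through, fell by 0.58 ± 0.15, and Tlr3 by 0.39 ± 0.12. Rnf135, a ubiquitin ligase that activates RIG-I, fell by 1.01 ± 0.13 (adjusted p = 0.000352), with no overlap between SB and VILI arrays.

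A wider list of 71 interferon targets that are no members had 57 tested genes, with a median of -0.15 over both genotypes. Of these, 11 fell (19.3%, against 22.6% of all genes) and 9 rose (15.8%, against 14.1%). Irgm2, a relative of Igtp, had 11.35, 10.31 and 11.31 against 9.81 to 10.09 in WT and 11.27, 11.49 and 11.13 against 10.50, 9.74 and 10.35 in KO, and fell by 1.06 ± 0.19 (adjusted p = 0.00246). Parp11 fell by 0.81 ± 0.17, Trim34a by 0.79 ± 0.17 and Ifitm2 by 0.28 ± 0.06. Samhd1, which depletes nucleotides that viruses need, rose by 0.52 ± 0.10, and Cd69, an early activation marker of lymphocytes, by 2.23 ± 0.38 (adjusted p = 0.00178). None of the 90 tested pathway genes passed for the difference of responses, nor between genotypes under SB or after VILI.

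Promoter matches were spread over called and uncalled members. Of 10 fallen members in the promoter table, 4 held an ISRE core (Bst2, Gbp2, Ifih1 and Igtp) and 5 held a GAS match, among them Psmb8 and Ifit2 shown above. Of 16 uncalled members in the table, 9 held an ISRE core and 3 a GAS match. These counts are a description of small groups.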

How the data were processed

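Total RNA of 12 mouse lungs, extracted with Trizol per the labels' protocols, was measured on Affymetrix mouse genome arrays. Values were deposited on a log2 scale, as signals per probe set normalized between arrays by the authors. The submitters' processing notes name MAS5 and GCRMA, without role or version. Of these, GCRMA compresses differences of dim probe sets, and whether this holds for these values was not tested. The arrays' medians lay between 4.94 and 5.037. Of 45037 probe sets, 34945 carried 1 symbol in the platform's annotation. Probe sets with a mean under the 40th percentile were left out, and the brightest stood for each gene, which gave 12309 genes.

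A model of 4 group means over 12 arrays was fitted with limma 3.58.1 in R 4.3.3 (lmFit and eBayes), with Benjamini-Hochberg adjustment within each of 6 comparisons and a threshold of 0.05. The test was checked on simulated data. Summed signals of a list are log2 of the sum of linear signals. Arrays are taken as separate animals, since the series text gives 3 animals to a group. Same-numbered arrays did not deviate together, so no pairing was used. The members, the lists and the rule for naming genes (called members and the 5 largest differences between genotypes) were chosen with earlier results of these data known. Alternatives were other scalings, filters, probe set rules, variance priors, array weights, a replicate block, the compared groups alone and arrays left out. Testing every probe set by itself was added after seeing the data. Sequences and gene order are from RefSeq, GRCm38.p6.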

Additional observations from a re-analysis of the deposited data

How the results depend on the processing

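Over both genotypes the number of members called stayed within 1.5 times of 14 under every other scaling, probe set rule, variance prior and array weighting and under the stricter filter, and was 9 with no filter. In WT, where 1 member was called, the number was 4 with the filter at the 60th percentile, 0 with the mean of the probe sets, 2 with a trended and robust prior and 8 with array weights. With array weights that was 22.9% of the members, against 31.2% of all genes, and with the mean of the probe sets 0% against 15.2%. The members' medians ran, when each array was left out in turn, from -0.37 to -0.02 in WT, -0.37 to -0.12 in KO, -0.35 to -0.13 over both, -0.17 to 0.20 between genotypes under SB, 0.01 to 0.11 after VILI and -0.17 to 0.25 for the difference of responses. The members called ran from 1 to 7, 1 to 8 and 7 to 15 in the first 3 comparisons and were 0 throughout in the others. Over all genes, these fits gave 933 to 2052 calls in WT, 1232 to 3301 in KO, 3551 to 4659 over both, 0 to 16 under SB, 2 to 19 after VILI and 0 to 6 for the difference of responses. Array weights gave 3836 calls in WT, 4017 in KO, 26 under SB, 84 after VILI and 1 for the difference, against 1892, 2554, 6, 13 and 0. The compared groups alone gave 845 in WT and 0 under SB. Without both SB arrays that stood apart there were 19 under SB, 28 after VILI and 11 for the difference. No filter gave 6 after VILI and 1 for the difference, and the stricter filter gave 8 after VILI. Herc6 reversed with the mean of its probe sets, to -0.21 between genotypes after VILI and -0.13 for the difference of responses. Gbp2 between genotypes under SB (0.31) ran from -0.021 without KO SB replicate 2 to 0.73 without WT SB replicate 3, and was also just under 0 without WT SB replicate 2. The cause of these changes was not tested.

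With the replicate number as a block, 1 member was called in WT, 5 in KO and 12 over both genotypes (Bst2 and Usp18 were lost). In these 3 comparisons the counts over all genes stayed within 1.5 times of the main fit, where 15.4%, 20.7% and 36.7% of all genes passed. With the block, 0 genes passed under SB and 2 after VILI. Of 18 same-numbered pairs across groups, 3 had deviations correlated above 0.1, with a range of -0.63 to 0.40, so the numbers are not taken to pair the arrays. Signal over background limits Oas3, Oasl1, Mx2 and Cxcl9, whose mean signals lay under the filter level and which were not tested.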
